A study of Mus musculus with 12 samples.

Results

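Levels of 10 genes were followed through all 25 clusters of the embryonic mouse cortex because they were lower after prenatal EtOH in Cluster 1, the larger of the clusters annotated as callosal projection neurons (PN). They are Trps1, Camk2d, Megf10, Ect2, Arhgap5, Cpe, Rbms3, Plce1, Tanc1 and Fgf13, 10 of the 23513 genes in the count tables. All 10 were measured in every embryo. C57BL/6J dams received i.p. injections of saline, or of 2.5 g/kg EtOH (25% v/v), once daily for 6 days from E8.5, and embryos were labelled embryonic day 14. Cortical nuclei of each embryo made up a snRNAseq library, in which molecules of RNA are counted by their unique molecular identifiers (UMIs). The embryos are named by dam and number. Saline embryos S1-1 and S1-2 are littermates, as are S2-1, S2-2 and S2-4. EtOH embryos E1-1 and E1-2 are littermates, as are E2-1, E2-2, E2-3 and E2-4, which makes 5 saline and 6 EtOH embryos. Batch 1 held the litters S1 and E1, batch 2 the litters S2 and E2. Each treatment thus rests on 2 dams, littermates shared a dam, the labels give no sex, and saline embryo S2-3 was not analysed here.

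In the developing cortex, radial glial cells (RGCs) divide next to the ventricle and give rise to intermediate progenitor cells (IPCs) and to PNs, while interneurons reach the cortex by migration from the ventral forebrain. Callosal PNs are the neurons that send axons across the midline to the opposite hemisphere. A nucleus holds mostly unspliced and newly made RNA, so snRNAseq reads the RNA present in the nucleus rather than in axons and dendrites.

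The 10 genes have different known roles and lie apart in the genome (GRCm38). Trps1 is a GATA-type zinc finger repressor of transcription and Rbms3 an RNA-binding protein. Ect2 is an exchange factor that activates small GTPases at the cleavage furrow during cytokinesis, and Arhgap5 (p190B) is a GTPase-activating protein that switches small GTPases off. Plce1 is a phospholipase C regulated by Ras and Rap, and Camk2d is the delta subunit of the calcium- and calmodulin-dependent kinase CaMKII. Megf10 is an EGF-repeat receptor known for engulfment by glia. Tanc1 is a scaffold of the postsynaptic density, Cpe trims peptide hormone precursors in secretory granules, and Fgf13 is an intracellular FGF that binds voltage-gated sodium channels and microtubules. Fgf13 lies on chromosome X (59062145 to 59568071, - strand), and with the sex of the embryos not given its level was not adjusted for it. The longest is Rbms3, with 1057168 bases on chromosome 9 (116572746 to 117629913, - strand), and the shortest Ect2, with 56657 bases on chromosome 3 (27097222 to 27153878, - strand).

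The tables held 50550 nuclei and between 14078316 (E1-1) and 83061737 (S1-1) UMIs per embryo. Of 50226 barcodes, 314 (0.625%) occurred in more than 1 library. Cluster 1 held 2432 saline and 1934 EtOH nuclei, 209 to 672 per embryo. Median UMIs per Cluster 1 nucleus ranged from 6137 to 8665 in saline embryos and from 3988 to 6463 in EtOH embryos, so depth moved with treatment. The lowest saline value, 6137, was that of S2-4. The subcortical markers Fezf2, Bcl11b, Tle4 and Sox5 summed to 6765 ± 341 CPM in Cluster 1 and 6371 ± 370 CPM in the 7 other PN clusters combined (SD, n = 5 saline embryos). In EtOH embryos the Cluster 1 sum was 7174 ± 509 CPM although 3 of the 4 markers had lower means. Only Sox5 had a positive log2 fold change (0.09 ± 0.07, SE), so the sum follows Sox5 more than the others. CPM are UMIs scaled to a fixed total of UMIs per embryo and cluster. Log2 fold changes come from edgeR with a further scaling of the libraries (TMM). They can therefore differ in size, and near 0 in sign, from a ratio of CPM means.

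A gene was called where its adjusted p was under 0.05 and its fold change was below 0.8 or above the inverse of 0.8. A sum over nuclei cannot tell fewer nuclei with a transcript from less RNA in each. Cluster 1 was the contrast that chose the genes, so its values are a description and carry no test. By edgeR on counts summed per embryo, all 10 passed the limits used throughout, beside 1.69% of all 10769 genes tested there that passed in the same direction. They held places 1 to 11, all but place 8, among genes with lower levels ordered by p.

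Ect2, Plce1, Megf10 and Camk2d differed most in Cluster 1. Ect2 was at 9.45, 10.7, 13.4, 16.7 and 7.60 CPM in S1-1, S1-2, S2-1, S2-2 and S2-4, and between 2.07 and 4.59 CPM (median 3.52) in the EtOH embryos. Its log2 fold change was -1.87 ± 0.27 (SE), and it rested on 230 UMIs in all saline embryos and 38 in all EtOH embryos. Every EtOH embryo was below every saline embryo, with S2-4 nearest to them.

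For Plce1 the saline embryos, in the same order, gave 19.4, 11.4, 15.4, 22.03 and 13.6 CPM and the EtOH embryos 3.69 to 10.2 CPM (median 6.71), a log2 fold change of -1.36 ± 0.23. Megf10 stood at 16.2, 14.9, 21.7, 19.1 and 13.6 CPM against 5.38 to 10.5 CPM (median 6.28), a log2 fold change of -1.35 ± 0.19. Both groups stayed apart for both genes.

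Camk2d was at 36.3, 25.9, 40.7, 38.8 and 22.1 CPM in saline embryos and at 12.01 to 16.5 CPM (median 13.1) in EtOH embryos, with a log2 fold change of -1.31 ± 0.18. Tanc1 was at 20.4, 17.2, 13.8, 23.2 and 19.8 CPM against 5.90 to 11.8 CPM (median 10.1), with a log2 fold change of -1.05 ± 0.18. The saline embryos spread more widely than the EtOH embryos for Camk2d (SD 8.25 against 1.77 CPM), and for neither gene did the groups overlap.

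Rbms3 lay at 62.9, 55.7, 52.9, 51.1 and 33.6 CPM after saline and at 20.3 to 31.5 CPM (median 27.3) after EtOH, a log2 fold change of -1.02 ± 0.16. Trps1 lay at 149, 152, 179.6, 202 and 145 CPM against 92.4 to 115 CPM (median 97.3), a log2 fold change of -0.78 ± 0.09. S2-4 was the lowest saline embryo for both, close to the highest EtOH embryo for Rbms3 and well above it for Trps1.

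Cpe, Arhgap5 and Fgf13 differed least. Cpe was at 189, 194, 231, 229 and 173 CPM against 122 to 160.1 CPM (median 146), a log2 fold change of -0.51 ± 0.08. Arhgap5 was at 127, 123, 143, 150.4 and 129.7 CPM against 80.3 to 109 CPM (median 100.4), a log2 fold change of -0.50 ± 0.08. Fgf13 was at 799, 806, 962, 883 and 687 CPM against 572 to 689 CPM (median 614), a log2 fold change of -0.46 ± 0.08. Fgf13 was the exception to the separation of groups, since saline embryo S2-4 fell just below the highest EtOH embryo.

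**Figure D1:**
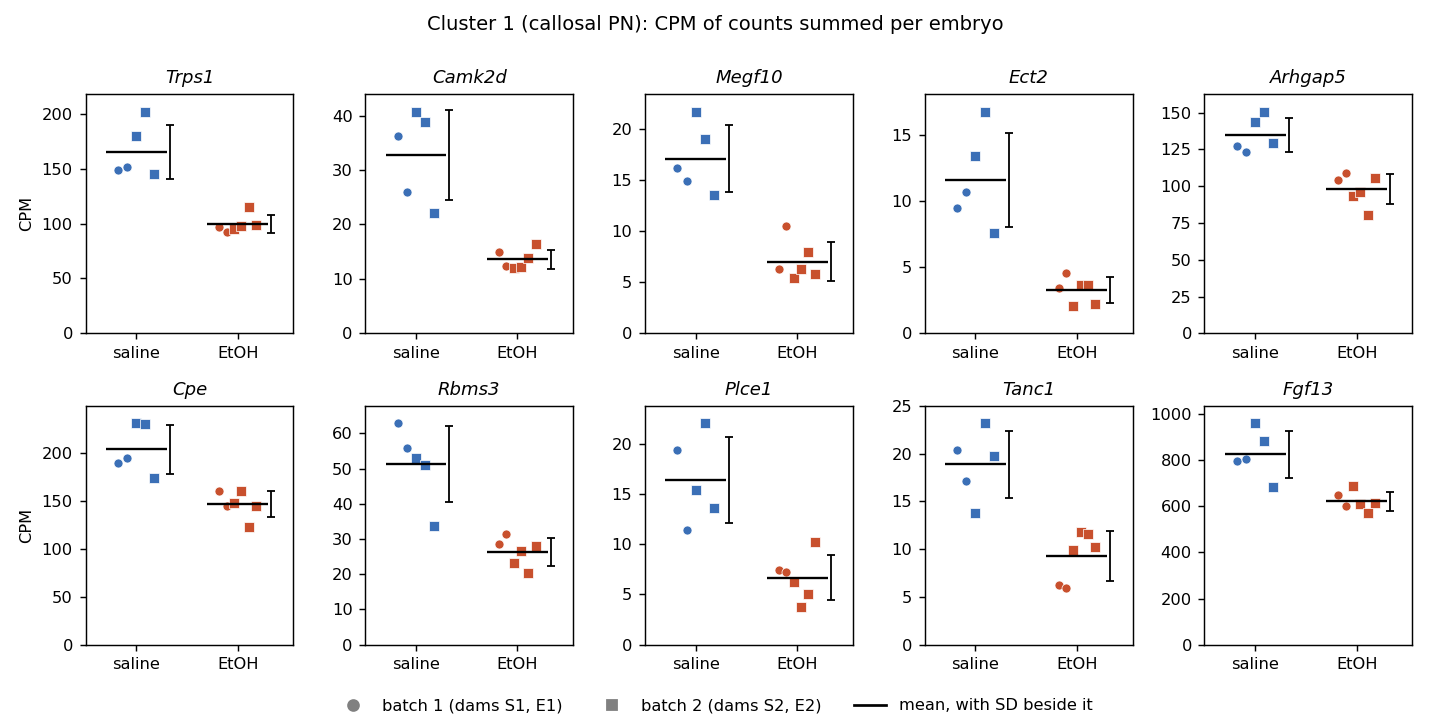
Level of each of the 10 genes in Cluster 1 (y axis, CPM, starting at 0) in 5 saline and 6 EtOH embryos, with circles for batch 1 and squares for batch 2, and the group mean with its SD as a bar beside it. EtOH embryos lie below all saline embryos for 9 genes, and for Fgf13 the saline embryo at 687 CPM lies below the EtOH embryo at 689 CPM.

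For 9 of the 10 genes no EtOH embryo reached the lowest saline embryo, beside 1.27% of all genes tested in Cluster 1. S2-4 was the lowest saline embryo for 7 of the 10. With batch 1 alone 9 of the 10 passed the limits, beside 4.36% of all genes of Cluster 1 called lower, and with batch 2 alone (3 saline and 4 EtOH embryos) 0 did by edgeR, as for every other gene of Cluster 1, of which 1272 had an unadjusted p under 0.05. Each batch is a part of the values that chose the genes, so neither is a separate check. In batch 2 all 10 means were lower after EtOH, and the sizes differed between batches for some genes. Tanc1 went from 18.8 to 6.09 CPM in batch 1 and from 18.9 to 10.9 CPM in batch 2, and Ect2 from 10.1 to 4.01 CPM and from 12.6 to 2.90 CPM (means). For Trps1 the means were 150.5 and 94.4 CPM in batch 1 and 176 and 102 CPM in batch 2.

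Markers of other cell types were measured in Cluster 1 beside these genes. All 8 radial glia markers (Hes1, Hes5, Pax6, Sox2, Vim, Nes, Fabp7 and Slc1a3) had lower means after EtOH, and their sum ranged from 81.4 to 128 CPM in saline and from 67.3 to 106 CPM in EtOH embryos. All 5 markers of dividing cells (Mki67, Top2a, Cenpf, Knl1 and Ccnb1) had lower means, with sums of 41.6 to 113 CPM and 16.6 to 55.7 CPM. The IPC markers summed to 35.3 to 61.1 CPM and 26.5 to 41.8 CPM (4 of 5 lower), the interneuron markers to 38.5 to 111 CPM and 25.8 to 53.8 CPM (5 of 6 lower), and the Cajal-Retzius markers to 169.7 to 438 CPM and 94.0 to 212 CPM (3 of 4 lower). The microglia markers went the other way, with mean sums of 13.4 CPM in saline and 22.4 CPM in EtOH embryos (0 of 5 lower). Mean sums were lower after EtOH for the markers of endothelial cells, pericytes, meningeal fibroblasts, oligodendrocyte precursors and blood cells. None of these lists had a marker at 0, and the summed levels of the groups overlapped in all of them. Of single markers, the dividing cell marker Cenpf (log2 fold change -0.98 ± 0.26, adjusted p = 0.0432, edgeR), the IPC marker Neurog2 (-0.72 ± 0.20, adjusted p = 0.0462) and the PN marker Neurod2 (-0.69 ± 0.16, adjusted p = 0.0433) passed as lower in Cluster 1. Their part in the differences of the 10 genes was not tested.

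Most genes that are far higher in RGCs had lower values in Cluster 1 after EtOH. Of the genes tested in Cluster 1, 159 besides the 10 were at least 10 times higher in RGCs than in Cluster 1 of saline embryos. Of these 147 (92.5%) had a negative log2 fold change in Cluster 1 against 49.5% of all genes tested, 38 (23.9%) passed the limits as lower and 0 as higher by edgeR, and their median log2 fold change was -0.68 against 0.00 over all genes. Megf10, Ect2, Plce1 and Tanc1 are in this range of RGC levels. Of 51 other genes at least 10 times higher in interneurons than in Cluster 1, which is the range of Rbms3, 45 had a negative log2 fold change, 8 passed as lower and 0 as higher, and the median was -0.87. These counts were made after the values were seen, carry no test, and use the saline levels of Cluster 1 both to choose the genes and in their fold change. Such genes are low in Cluster 1, where counts in saline embryos alone could let a gene be tested. This can favour negative values at low levels, and the share over all genes covers genes of every level.

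**Figure D2:**
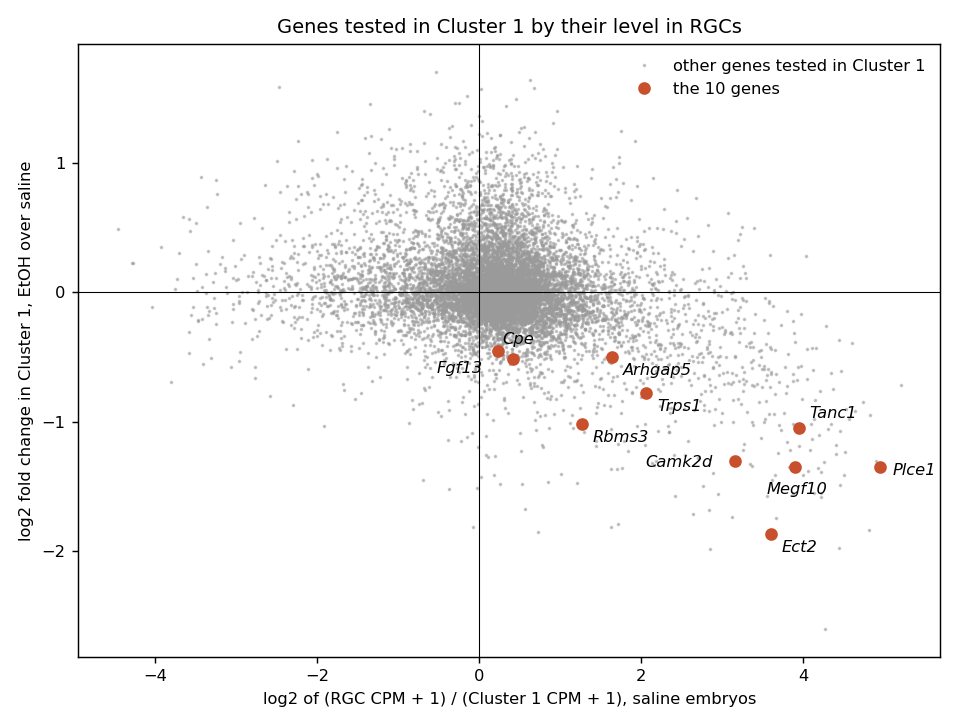
Each point is a gene tested in Cluster 1, placed by the log2 of its mean CPM + 1 in RGCs over that in Cluster 1 of the 5 saline embryos (x axis) and by its log2 fold change in Cluster 1, EtOH over saline (y axis), with the 10 genes in red and named. Genes far to the right are mostly below 0, and Megf10, Ect2, Plce1 and Tanc1 lie among them, while Fgf13 and Cpe lie near an equal level in RGCs and Cluster 1.

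Set against the RGCs of the same embryo, the level of Ect2 in Cluster 1 was 7.996% ± 3.44 of the RGC level in saline and 2.15% ± 0.650 in EtOH embryos (SD, n = 5 and 6). The same share went from 6.18% ± 0.607 to 2.87% ± 0.943 for Tanc1 and from 3.22% ± 1.36 to 1.14% ± 0.385 for Plce1. For the summed radial glia markers it was 10.1% ± 2.87 and 7.19% ± 1.47, and for the dividing cell markers 5.97% ± 3.02 and 3.43% ± 1.499. These shares use the Cluster 1 values that chose the genes and are a description. For 7 of the 10 genes, Ect2, Tanc1 and Plce1 among them, every EtOH embryo was below every saline embryo, beside 0.707% of all genes tested in Cluster 1 and with a UMI in the RGCs of every embryo. The groups overlapped for Arhgap5, Cpe and Fgf13 and for both marker lists.

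The same Cluster 1 counts can be described per nucleus. After each nucleus was thinned to 2000 UMIs, 23.1% ± 3.57 of saline and 13.1% ± 1.26 of EtOH nuclei of Cluster 1 had a Trps1 UMI (mean and SD over embryos). Without thinning the Trps1 shares were 52.4% and 23.99%, and in Cluster 4, rostral subcortical PNs where Trps1 is lowest, the thinned shares were 10.1% ± 3.86 and 4.13% ± 1.35. For Ect2 the thinned shares in Cluster 1 were 2.46% ± 1.34 and 0.575% ± 0.451, beside 1.28% ± 0.359 and 1.07% ± 0.132 in Cluster 4, too near the level of single UMIs to read a change from. Of the Cluster 1 nuclei, 4 saline and 16 EtOH nuclei under 2000 UMIs were left out.

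In saline embryos the place of Cluster 1 in the order of the 25 clusters, from the highest level down, ran from 15 for Ect2 and 16 for Tanc1 and Fgf13, just past the middle, to 25, the lowest, for Rbms3. Clusters were built from these genes among others, so the pattern is a description. For 6 of the 10 the highest cluster was one of RGCs. Trps1 was highest in RGC Cluster 20 (936 ± 138 CPM), Camk2d in Cluster 21, the cortical hem RGCs (548 ± 88.2 CPM, overlapping with interneuron Cluster 15 at 497 ± 99.95 CPM), and Arhgap5 in Cluster 3, the interneuron precursors among the RGCs (502 ± 26.8 CPM). Megf10 (451 ± 26.3 CPM), Plce1 (692 ± 100.3 CPM) and Tanc1 (437 ± 41.2 CPM) were highest in Cluster 12, the non-mitotic RGCs.

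Trps1, Arhgap5 and Plce1 had RGC clusters in all of their 5 highest places, and Megf10 and Tanc1 in 4 of them. Megf10 in Cluster 12 stood apart from the next cluster, with 412 CPM in its lowest embryo and 348 CPM in the highest embryo of Cluster 3. For Plce1 and Tanc1 the ranges of Cluster 12 and Cluster 2 overlapped. In Cluster 1, Plce1 was at 16.4 ± 4.30 CPM and Tanc1 at 18.9 ± 3.55 CPM, against 534 ± 90.4 and 305 ± 44.6 CPM in all RGCs combined.

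Ect2 followed dividing cells. It was highest in Cluster 17, the mitotic IPCs (202 ± 21.5 CPM), and in RGC Cluster 2 (198 ± 33.3 CPM), whose ranges overlapped and whose order turned when all 11 embryos or the median were used. It was at 134 ± 23.8 CPM in Cluster 10, the late interneuron precursors, and at 7.38 CPM in Cluster 25, its lowest place.

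Rbms3, Fgf13 and Cpe had their highest levels outside RGCs. Rbms3 was highest in Cluster 5, migrating interneurons (1332 ± 59.9 CPM), apart from every other cluster, and 25.98 times its level in Cluster 1. Fgf13 was highest in the same Cluster 5 (1709 ± 142 CPM) and varied least but for Cpe, by 3.80 times from the highest to the lowest cluster. Cpe varied by 2.64 times, from 421 ± 28.7 CPM in Cluster 6, the non-mitotic IPCs, to 159 CPM in Cluster 21. In Cluster 22, the smaller cluster annotated as callosal PNs, Fgf13 was at 980.3 CPM and Rbms3 at 75.8 CPM.

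**Figure D3:**
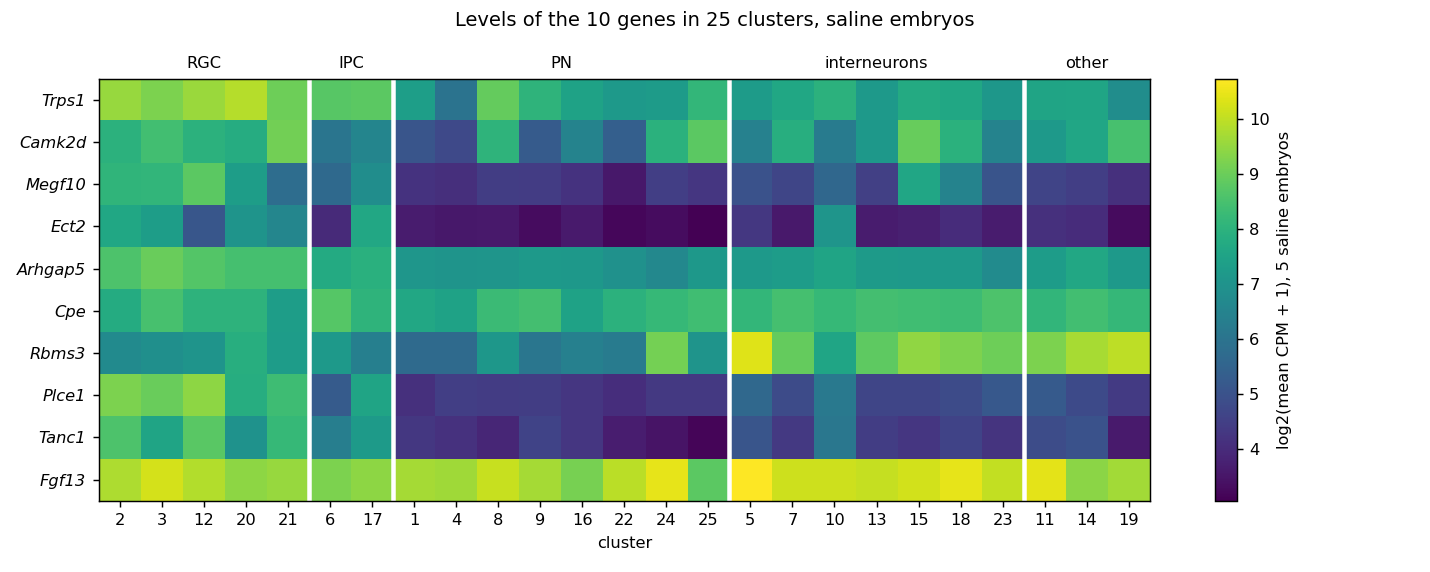
Mean level in the 5 saline embryos, as log2(CPM + 1) by colour, of the 10 genes (rows) in the 25 clusters (columns, grouped by cell class). Megf10, Ect2, Plce1 and Tanc1 are brightest in RGC or dividing clusters and dark in all PN clusters, Rbms3 is brightest in Cluster 5, and Cpe and Fgf13 change little.

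Over the 25 clusters, log2(mean CPM + 1) of Plce1 and Tanc1 had a Pearson correlation of 0.96, Arhgap5 with each of them 0.93, and Ect2 with Plce1 0.87, while Rbms3 with Trps1 was at -0.28. The points share libraries and depth, and the values are a description. Among 9038 genes, the most alike were Knl1, Bub1 and Kif20b for Ect2 (each 0.99), all genes of mitosis. They were Trap1, Hspa9 and Ppid for Trps1 (0.88 to 0.90), Ostm1, Nr2e1 and Hmga2 for Megf10 (0.91 to 0.93), and Ttyh1, 9430041J12Rik and Mtx1 for Plce1 (each 0.97). For Tanc1 they were Dusp16, Col4a5 and Swap70 (0.96 to 0.97), for Camk2d Epm2a, Ptpn3 and Nup93 (0.82 to 0.83), for Rbms3 Gm45881, Ripor2 and Ric8b (0.88 to 0.95), for Cpe Saraf, Tm6sf1 and Klf12 (0.71 to 0.74), and for Fgf13 Sept6, Tmem39b and Mboat2 (0.72 to 0.74).

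For Arhgap5 the most alike gene was Gm35188 (0.99), followed by Spice1 and Pdpn (each 0.96). Gm35188 is a long non-coding RNA gene on the opposite strand (GRCm38 chromosome 12, 52496326 to 52581409) that covers 100% of Arhgap5 (52503972 to 52571975), and the strand of counting is not given in the sources used here, so reads of the pair may not be told apart. In Cluster 1 Gm35188 was at 51.6 ± 30.9 CPM in saline and 90.6 ± 8.65 CPM in EtOH embryos, with a log2 fold change of 0.78 ± 0.29 and an adjusted p of 0.145 by edgeR, in the other direction than Arhgap5.

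The other 24 clusters hold nuclei that the choice of genes did not use, though from the same embryos. They allowed 219 of the 240 tests of a gene in a cluster. The p-values take littermates as independent embryos. By edgeR, 3 of the 219 passed the limits as lower, beside 0.28% of all tests of genes in these clusters, and 0 as higher (0.384% of all tests), where 5 positive values had an unadjusted p under 0.05 and DESeq2 and limma voom also called 0. The 3 counts depend on the embryos used. Without S2-4 there were 39 lower and 1 higher, where calls rose over all genes too, to 2.44% of all tests lower and 5.99% higher. Without E1-1 there were 5 lower (0.121% of all tests), without E2-4 2 (0.0523%), and without any other embryo 0. With batch 1 alone 17 were lower and 2 higher, beside 1.32% and 2.2% of all tests, and with batch 2 alone 0.

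Arhgap5 was lower in Cluster 8 (PN 1) and in Cluster 9 (early PNs). In Cluster 8 it was at 145, 118, 129.5, 151 and 121 CPM in S1-1, S1-2, S2-1, S2-2 and S2-4 and at 91.5 to 127 CPM (median 102) in EtOH embryos, a log2 fold change of -0.40 ± 0.09 (adjusted p = 0.0405, edgeR), where 0.865% of all genes were called lower. In Cluster 9 it was at 148, 142, 153, 175 and 108 CPM against 95.1 to 126 CPM (median 101), a log2 fold change of -0.48 ± 0.11 (adjusted p = 0.0418), where 0.799% were. In both clusters the groups overlapped, through E1-1 in Cluster 8 and through S2-4 in Cluster 9. Both calls of Arhgap5 were lost with batch as a term (edgeR, adjusted p = 0.0522 and 0.0604), under which that of Trps1 in Cluster 5 passed (0.0482), and both were lost with counts summed per dam (0.111 and 0.0774).

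Trps1 was lower in Cluster 5, migrating interneurons, at 154, 139, 189.7, 148 and 141 CPM against 87.7 to 138 CPM (median 116), and no EtOH embryo reached the saline embryos. Its log2 fold change there was -0.48 ± 0.11 (adjusted p = 0.0407, edgeR), where 0.813% of all genes were called lower. In Cluster 8 Trps1 went the other way, with 522, 428, 466.2, 418 and 607 CPM against 539 to 763 CPM (median 599), a log2 fold change of 0.29 ± 0.10 that missed the limit (adjusted p = 0.104). The groups overlapped in Cluster 8 through S2-4.

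Of the 219 tests, 175 (79.9%) had a negative log2 fold change, beside 49.0% of all tests of genes in these clusters. Arhgap5 had a negative value in all 24 clusters, Ect2 in all 17 where it was tested, and Cpe and Fgf13 in 23 of 24. The median over clusters was -0.31 for Arhgap5, -0.45 for Ect2, -0.22 for Cpe and -0.24 for Fgf13. Camk2d was negative in 12 of 24 and Rbms3 in 13 of 24, and Rbms3 was positive in 6 of 7 interneuron clusters. Clusters share embryos, so these counts are not independent. A gene was tested only where enough embryos had counts, and saline embryos alone could meet this, which favours negative values at low levels. Ect2 in Cluster 7, for example, was at 7.71 to 16.6 CPM in saline and at 0 to 6.55 CPM in EtOH embryos. By cell class, 50 of 58 tests were negative in PN clusters, 36 of 50 in RGC clusters and 52 of 65 in interneuron clusters.

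Among PN clusters the values nearest to those of Cluster 1 were in Cluster 9, with a median over the 10 genes of -0.82 and 10 of 10 negative (48.7% of all genes there), where the median of all genes was 0.01. In Cluster 22, annotated as callosal like Cluster 1, 6 of the 10 could be tested, 4 were negative (49.9% of all genes there) and the median was -0.07. Ect2, Megf10, Plce1 and Tanc1 were not tested there, so the medians of Clusters 9 and 22 cover different genes. By edgeR 0 of the 6 passed there, beside 0.0979% of all genes tested in Cluster 22, and DESeq2 and limma voom also called 0. At an unadjusted p under 0.05 there was 1 (edgeR).

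**Figure D4:**
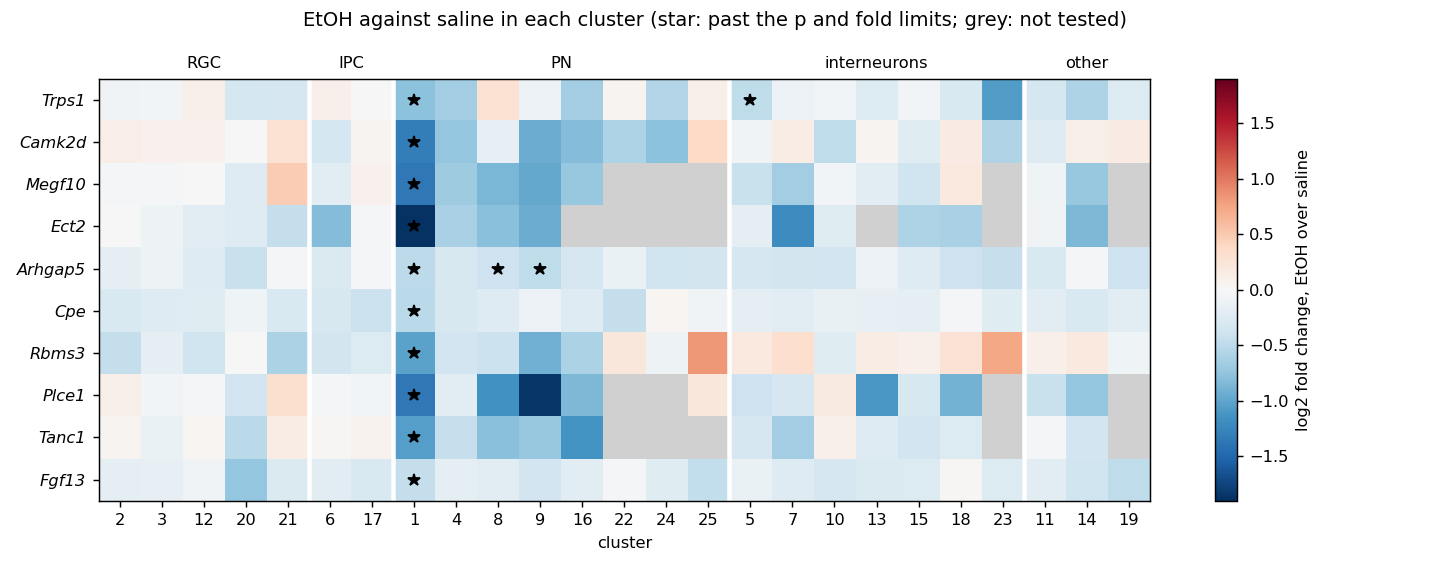
Log2 fold change, EtOH over saline, by colour for each of the 10 genes (rows) in each cluster (columns, grouped by cell class), with a star where the limits were passed and grey where the gene was not tested. All 10 genes are starred in Cluster 1, which chose them, Arhgap5 is starred in Clusters 8 and 9 and Trps1 in Cluster 5, and blue shades outnumber red ones elsewhere.

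Levels, tests and differences of cell classes pool clusters whose shares differ between embryos. They thus mix the make-up of a class with the level in each of its clusters. When the 7 other PN clusters were summed per embryo, 10 of 10 genes had a negative log2 fold change (49.9% of all genes did), with a median of -0.40 over the 10 and 0.00 over all genes, and 3 passed the limits as lower, beside 2.21% of all genes tested. These were Ect2, Tanc1 and Arhgap5. With limma voom and the dam as a random block the call of Tanc1 was lost (adjusted p = 0.0543), and with counts summed per dam all 3 calls were. Ect2 was at 8.65, 8.43, 12.7, 12.9 and 8.79 CPM in S1-1, S1-2, S2-1, S2-2 and S2-4 and at 4.81 to 8.08 CPM (median 6.17) in EtOH embryos, with a log2 fold change of -0.78 ± 0.17 (adjusted p = 0.0242, edgeR). No EtOH embryo reached the saline embryos.

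Tanc1 was at 17.5, 16.3, 15.9, 21.1 and 11.2 CPM against 9.03 to 14.2 CPM (median 10.4), with a log2 fold change of -0.64 ± 0.15 (adjusted p = 0.0307, edgeR), and the groups overlapped through S2-4. Arhgap5 was at 139, 125, 135, 145 and 119 CPM against 98.4 to 116 CPM (median 106), with a log2 fold change of -0.36 ± 0.06 (adjusted p = 0.0233, edgeR), and the groups were apart. Megf10 just missed the limit, at 21.05, 17.8, 22.05, 18.5 and 10.5 CPM against 8.64 to 16.9 CPM (median 9.69), with a log2 fold change of -0.79 ± 0.22 (adjusted p = 0.05004, edgeR). Cpe passed the limit on p (0.0313) and not that on the fold, with a log2 fold change of -0.29 ± 0.07.

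Of the others in these PNs, Plce1 was at -0.69 ± 0.24, Rbms3 at -0.41 ± 0.16, Camk2d at -0.38 ± 0.14, Fgf13 at -0.23 ± 0.09 and Trps1 at -0.06 ± 0.08 on the log2 scale, and none passed. The count of 3 also rests on single embryos. It was 8 without S2-4, for which the share of all genes called in this class is not given here. In the tests of single Clusters 2 to 25, calls over all genes rose without S2-4 from 0.28% to 2.44% lower. The count in these PNs was 0 without S1-1, S1-2, S2-1, E2-2 or E2-3, and 0 with counts summed per dam, 2 dams against 2. The markers of dividing cells summed to 65.5 to 107 CPM in saline and 38.6 to 69.1 CPM in EtOH embryos in the same PNs (5 of 5 lower), and the radial glia markers to 107 to 134 CPM and 110 to 146 CPM (5 of 8 lower). Passing as lower there were Cenpf (-0.89), Knl1 (-0.73) and Mki67 (-0.77) of the dividing cell markers, Eomes (-0.65) and Neurog2 (-0.70) of the IPC markers, Dlx1 (-0.61) of the interneuron markers, and Neurod2 (-0.67) and Slc17a6 (-0.42) of the PN markers, while the microglia markers P2ry12 (0.95) and Cx3cr1 (0.68) passed as higher (log2 fold changes, edgeR). Their part in these differences was not tested. Of 295 other genes at least 10 times higher in RGCs than in these PNs, 263 had a negative log2 fold change, 61 (20.7%) passed as lower and 1 as higher, and the median was -0.48. Here too, counts in saline embryos alone could let a gene be tested, which can favour negative values at low levels.

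**Figure D5:**
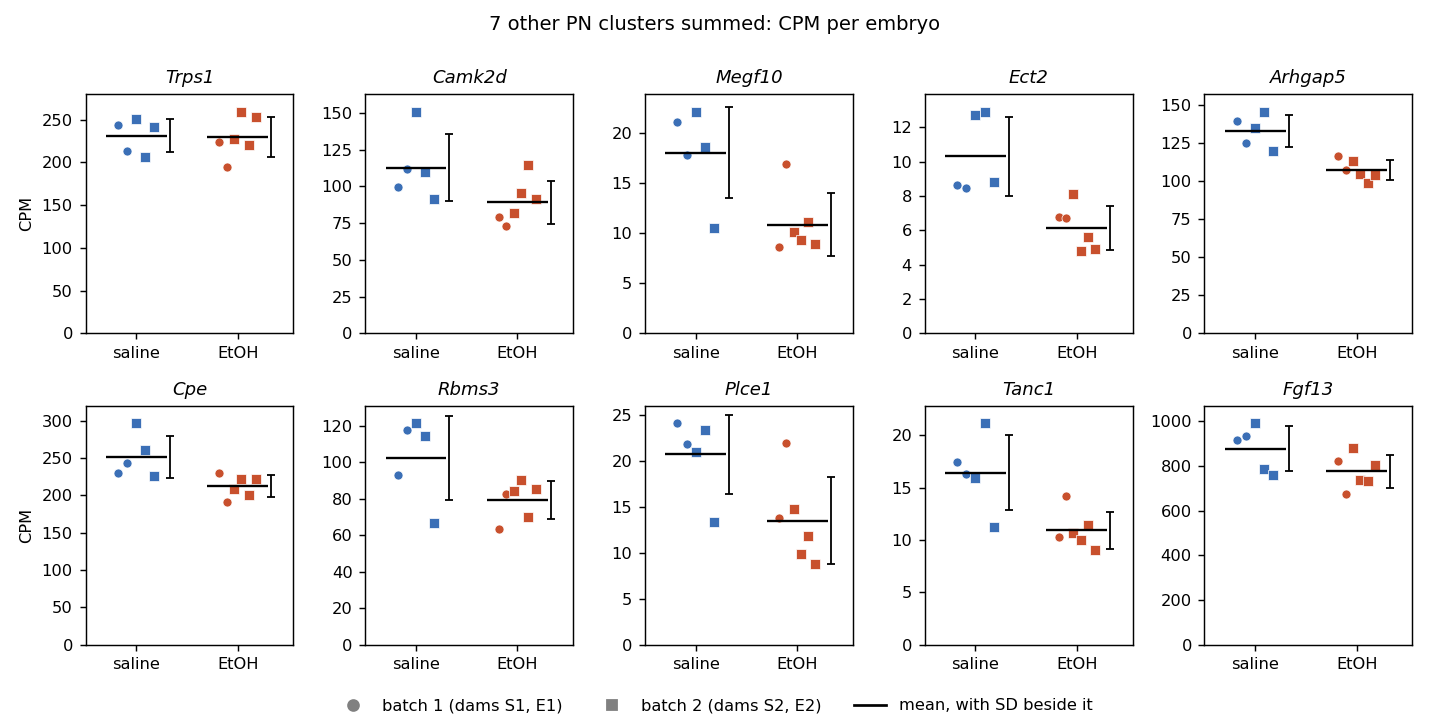
Level of each of the 10 genes in the 7 other PN clusters summed per embryo (y axis, CPM, starting at 0), with circles for batch 1, squares for batch 2, and the group mean with its SD as a bar beside it. Ect2 and Arhgap5 have no EtOH embryo at or above the lowest saline embryo, and for Tanc1 and Megf10 the saline embryo S2-4 lies among the EtOH embryos.

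The 250 bases before the start of Tanc1 and Ect2 are shown, because both genes passed as lower in these PNs, whose nuclei did not choose them, and have a RefSeq window at their annotated start. They are from RefSeq on GRCm38.p6, for Tanc1 chr2:59611792-59612041 (+ strand) and for Ect2 chr3:27153879-27154128 (- strand), and capitals mark matches on either strand to GGGCGG (the GC box), CCAAT, or the TCF/LEF motifs CTTTGAT and CTTTGAA.
Tanc1: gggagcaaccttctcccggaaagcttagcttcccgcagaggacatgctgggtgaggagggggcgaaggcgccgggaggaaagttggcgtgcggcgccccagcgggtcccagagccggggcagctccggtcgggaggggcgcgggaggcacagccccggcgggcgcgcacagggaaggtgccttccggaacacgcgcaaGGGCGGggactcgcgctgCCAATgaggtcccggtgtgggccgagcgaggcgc
Ect2: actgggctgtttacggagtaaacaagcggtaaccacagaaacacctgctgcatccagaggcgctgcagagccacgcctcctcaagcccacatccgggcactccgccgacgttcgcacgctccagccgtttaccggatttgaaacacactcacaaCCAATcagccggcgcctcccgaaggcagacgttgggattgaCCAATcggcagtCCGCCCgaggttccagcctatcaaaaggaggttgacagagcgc
Tanc1 held 1 GGGCGG and 1 CCAAT in 73.2% G and C, and Ect2 held 1 GGGCGG and 2 CCAAT in 59.2%. Of the 13 RefSeq windows of 7 of the 10 genes, 6 held GGGCGG, 4 CCAAT, 1 (Rbms3) CTTTGAT and 0 CTTTGAA, where 35.7%, 37.4%, 3.73% and 5.14% of all 32851 windows did, and 8 held the E-box CANNTG, which 72.3% of windows hold. The windows counted also hold the 50 bases after the start. Some of the 13 windows lie at starts inside the gene (for Arhgap5, Plce1 and Camk2d the only window), and a match describes letters only.

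In RGCs, where most of the 10 genes are highest, 6 of 10 had a negative log2 fold change (49.3% of all genes) and the values lay between -0.35 for Rbms3 and 0.05 for Camk2d. By edgeR 0 passed the limits as lower, beside 1.48% of all genes tested, and DESeq2 and limma voom also called 0. At the looser limit of an unadjusted p under 0.05 there were 4 of the 10 (edgeR). Without S2-4 2 passed, for which the share of all genes called in RGCs is not given here. In the tests of single Clusters 2 to 25, calls over all genes rose without S2-4 from 0.28% to 2.44% lower. Ect2 was at 152 ± 22.6 CPM in saline and 152 ± 3.70 CPM in EtOH embryos, and Plce1 at 534 ± 90.4 and 583 ± 24.1 CPM. These CPM lack the TMM scaling of the log2 fold changes, so the rise of Plce1 in CPM is larger than its log2 fold change. The EtOH embryos lay within the saline range for Ect2. The batches differed in RGCs, where 8 of 10 means were lower after EtOH in batch 1 and 4 of 10 in batch 2. For Trps1 and Plce1 all EtOH embryos lay below the saline embryos in batch 1 and above them in batch 2.

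In IPCs Cpe passed as lower, 1 of 10 beside 0.64% of all genes tested. It was at 396, 382, 357, 394 and 340.4 CPM against 258 to 338 CPM (median 317), a log2 fold change of -0.34 ± 0.08 (adjusted p = 0.0479, edgeR), with the highest EtOH embryo just under S2-4. The call was lost when any embryo but S2-4 was left out, and also with batch as a term (adjusted p = 0.0552), counts summed per dam (0.185), thinned counts (0.0519) or batch 2 alone (0.415).

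In interneurons Arhgap5 passed as lower, 1 of 10 beside 1.23% of all genes tested. It was at 155, 149, 163, 158 and 151 CPM against 127 to 138 CPM (median 129), a log2 fold change of -0.33 ± 0.05 (adjusted p = 0.0180, edgeR). The groups were well apart. The call was lost without S1-1, S1-2, S2-1, E2-1 or E2-2, where the adjusted p rose to between 0.0508 and 0.0739, and without E2-4, where the fold limit was missed. It was also lost with thinned counts, by the fold limit, with counts summed per dam (adjusted p = 0.0548) and with batch 2 alone (0.273). Rbms3 in interneurons was at 769.6, 751, 567.8, 693 and 694 CPM against 728 to 1131 CPM (median 852), a log2 fold change of 0.26 ± 0.13 that did not pass (adjusted p = 0.195, edgeR). In the class of striatal interneurons, Cajal-Retzius cells and unknown neurons 0 of 10 passed by edgeR, beside 0.493% of all genes tested, with 5 at an unadjusted p under 0.05. DESeq2 and limma voom each called 2, beside 1.09% and 0.704% of all genes.

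Whether the EtOH effect itself differed between classes was tested on each embryo's difference of log2 CPM between 2 classes with limma. For PN without Cluster 1 against RGC, 0 of the 10 genes passed an adjusted p under 0.05, as for all 13306 genes tested (0.0%). An unadjusted p under 0.05 was found for 5 of the 10, beside 1324 of the 13306. The differences of log2 fold changes were -0.65 ± 0.17 for Tanc1 (unadjusted p = 0.00236, adjusted 0.233, limma), -0.71 ± 0.21 for Ect2 (adjusted 0.287), -0.78 ± 0.24 for Megf10 (adjusted 0.338), -0.76 ± 0.27 for Plce1 (adjusted 0.377) and -0.17 ± 0.07 for Arhgap5 (adjusted 0.383). Without S2-4, 1 of the 10 passed, Tanc1, beside 0.69% of all genes.

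For PN without Cluster 1 against interneurons 0 of the 10 passed by limma, as for all genes (0.0%). Of the 10, 2 had an unadjusted p under 0.05, beside 654 of all 13759 genes. For RGC against interneurons 0 of the 10 passed, beside 0.0733% of all genes, and 4 had an unadjusted p under 0.05, beside 1176 of all 13645 genes. Rbms3 was among the 4, with a difference of -0.60 ± 0.20 (adjusted 0.421). These tests did not show that the EtOH effect on the 10 genes differed between the classes.

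Genes around the 10 in their pathways were counted in lists chosen with earlier results of these data known. Of 81 such genes tested in Cluster 1, 5 passed as lower (6.17%, beside 1.69% of all genes) and 0 as higher (beside 1.57%) by edgeR, with 1 higher at an unadjusted p under 0.05 and 0 by DESeq2 and by limma voom, and their median log2 fold change was -0.10. Without S2-4 14 passed as lower and 1 as higher, beside 5.76% and 9.55% of all genes, and without any other embryo 0 to 3 as lower. Among the 5 were Diaph2, Diaph3, Plcb4 and Dlg2.

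Around Arhgap5, 2 of the 11 genes of its GTPase pathway tested in Cluster 1 passed, the formins Diaph2 and Diaph3, which build actin filaments. Diaph3 was at 34.2 ± 9.72 CPM in saline and 16.4 ± 5.39 CPM in EtOH embryos (log2 fold change -1.07 ± 0.24, adjusted p = 0.0397, edgeR) and Diaph2 at 318 ± 55.0 and 237 ± 17.7 CPM (-0.47 ± 0.10, adjusted p = 0.0303). Arhgap35 (p190A), the paralog of Arhgap5, was at 305 ± 16.2 and 315 ± 18.1 CPM (adjusted p = 0.998).

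Around Plce1, 2 of 15 passed, among them the phospholipase C gene Plcb4 (38.3 ± 8.73 and 22.4 ± 5.33 CPM, log2 fold change -0.83 ± 0.18, adjusted p = 0.0272, edgeR). Around Tanc1, 1 of 14 passed, the postsynaptic scaffold Dlg2 (694 ± 110.0 and 546 ± 56.6 CPM, -0.40 ± 0.10, adjusted p = 0.0484), while the paralog Tanc2 stood at -0.17 ± 0.07 (adjusted p = 0.115).

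Around Ect2, all 8 cytokinesis genes tested in Cluster 1 had negative values (49.5% of all genes tested there did) with a median of -0.77, and 0 passed. The list holds 12 other genes, and those tested could enter on counts in saline embryos alone. Around Camk2d 0 of 7 passed, and the other CaMKII subunits Camk2a, Camk2b and Camk2g stood at -0.67 ± 0.25, 0.40 ± 0.15 and 0.15 ± 0.09. Around Fgf13 0 of 8 passed, with Fgf12 at -0.32 ± 0.09 (adjusted p = 0.0631) and Fgf14 at -0.22 ± 0.08. Around Cpe 0 of 7 passed (Cpd -0.17 ± 0.09), around Megf10 0 of 8 (Megf11 -0.02 ± 0.20), around Rbms3 0 of 2 (Rbms1 -0.72 ± 0.19, adjusted p = 0.0525, and Rbms2 -0.11 ± 0.14) and around Trps1 0 of 1, since Gata2 and Gata3 were near 0 CPM and not tested.

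In the other PNs 2 of 97 list genes passed as lower, among them Diaph3, beside 2.21% of all genes. In RGCs 6 of 95 did (6.32%, beside 1.48%), among them Rock2, Homer1, Plcl2, Rap2c and Megf9, and 1 passed as higher beside 2.31% of all genes, Plcd4 (8.56 ± 1.81 and 13.6 ± 2.68 CPM, log2 fold change 0.61 ± 0.17). Of the marker genes, the division genes Mki67 (log2 fold change -0.38 ± 0.07) and Cenpf (-0.38 ± 0.09) passed as lower in RGCs and the microglial Cx3cr1 (0.70 ± 0.18) as higher, and their part in these counts was not tested. In IPCs 3 of 87 passed as lower (3.45%, beside 0.64% of all genes), among them Homer1 and Rbms1, in interneurons 3 of 97 (3.09%, beside 1.23%), among them Diaph3 and Rnd3, and in the remaining class 1 of 89 (1.12%, beside 0.493%), Diaph3. Homer1, a postsynaptic scaffold, was at 96.3 ± 5.10 and 78.6 ± 6.30 CPM in RGCs (-0.37 ± 0.07, adjusted p = 0.0402, edgeR) and at 132 ± 12.2 and 138 ± 8.68 CPM in Cluster 1.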

How the data were processed

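Per the labels and the study's methods, the authors aligned reads of each 10x library with Cell Ranger to mm10 (versions not given in the sources used here), filtered nuclei, removed some genes, assigned nuclei to 25 clusters, and deposited a table of raw UMI counts per gene and nucleus for each embryo and cluster. Whether counting used strand is not given in the sources used here. Counts were summed per embryo and cluster, or per embryo and cell class. CPM is the count scaled to the usual fixed total of that sum. Cell classes were RGC (Clusters 2, 3, 12, 20 and 21), IPC (6 and 17), PN without Cluster 1 (4, 8, 9, 16, 22, 24 and 25), interneurons (5, 7, 10, 13, 15, 18 and 23) and other (11, 14 and 19).

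EtOH and saline were compared with edgeR 4.0.16 (robust quasi-likelihood test, TMM, filterByExpr) in R 4.3.3, over embryos with at least 10 nuclei and at least 2 embryos a group. A call needed a Benjamini-Hochberg adjusted p under 0.05 over all genes of that cluster or class and a fold change below 0.8 or above its inverse. The SE beside an edgeR log2 fold change is its absolute value divided by the square root of the F statistic of that test. It takes littermates as independent embryos. Differences between classes were tested with limma 3.58.1 on log2 CPM (prior count 2). Alternatives included DESeq2 1.42.0 and limma voom fitted with dam as random effect. Tests were checked on simulated counts. Figures were drawn with matplotlib 3.10.9 and tables handled with pandas 2.3.3. The 10 genes and all gene lists were chosen with earlier results of these data known. The rule for named genes took all 10 genes, the list genes called in Cluster 1 or a class (at most 6 a list), the direct paralogs and the 3 genes most alike in pattern (among genes reaching 20 CPM in some cluster). Not every called list gene is named. Some named genes and a marker list are not reported here. Doublets were not called here.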

Additional observations from a re-analysis of the deposited data

Results flagged for a closer look

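In 7 of 120 groups of embryos, 1 gene in 1 cell class or in Cluster 1, a single embryo stood far from the rest of its group by Dixon's criterion, which chance alone gives in about 1 of 20 groups, here 6. Trps1 in Cluster 1 was at 115 CPM in EtOH embryo E2-3 and at 92.4 to 99.2 CPM in the other EtOH embryos. Megf10 in RGCs was at 219 CPM in saline embryo S2-2 and at 272 to 289 CPM in the others. In the PNs without Cluster 1 Megf10 was at 16.9 CPM in EtOH embryo E1-2 and at 8.64 to 11.1 CPM in the others.

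Ect2 in interneurons was at 53.9 CPM in saline embryo S2-4 and at 25.2 to 30.8 CPM in the others. Within this class, Cluster 10, where Ect2 was at 164 CPM in S2-4, held 432 nuclei of S2-4 and 57 of S2-2. Cluster 7 held 296 and 221, so the make-up of the class differed, and its part in the value was not tested. Arhgap5 in interneurons was at 138 CPM in EtOH embryo E1-1 and at 127 to 131 CPM in the others. Plce1 in IPCs was at 108 CPM in saline embryo S1-2 against 72.9 to 81.8 CPM, and in the class of striatal interneurons, Cajal-Retzius cells and unknown neurons at 35.4 CPM in saline embryo S2-4 against 29.4 to 30.3 CPM.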

How the results depend on the processing

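No paired analysis was possible because the replicate numbers only count embryos within a dam. The batch, which holds 1 saline and 1 EtOH dam each, was fitted as a term instead. In Cluster 1 the 10 genes kept negative log2 fold changes under every alternative that gave a value (thinned counts gave none for Ect2), and the count called lower was 8 to 10 with 1 embryo left out (8 without S1-1) and 0 with batch 2 alone. The same Cluster 1 counts chose the genes, so negative values under refits were nearly fixed in advance and are no separate check. In the other 24 clusters the 3 tests called lower became 17 with DESeq2, 49 with no filter on low counts, 1 with batch as a term, 17 with batch 1 alone, 0 with batch 2 alone, 9 with limma voom and 5 with thinned counts, and 0 to 39 with 1 embryo left out. The 0 called higher became 2 with batch 1 alone and 0 to 1 with 1 embryo left out. In RGCs the 0 called lower became 4 with batch 1 alone and 0 to 2 with 1 embryo left out. In IPCs the 1 became 2 with batch 1 alone, 0 with batch as a term, batch 2 alone, sums per dam or thinned counts, and 0 to 2 with 1 embryo left out. In the PNs without Cluster 1 the 3 became 7 with DESeq2, 0 with batch 2 alone or sums per dam, and 0 to 8 with 1 embryo left out. In interneurons the 1 became 2 with DESeq2 or batch 1 alone, 0 with batch 2 alone or thinned counts, and 0 to 1 with 1 embryo left out. In the remaining class the 0 became 2 with DESeq2, no filter or limma voom, 1 with batch 1 alone, and 0 to 2 with 1 embryo left out. Of the list genes in Cluster 1, the 5 called lower became 8 with DESeq2 or batch 1 alone, 16 with no filter, 0 with batch 2 alone, 1 with sums per dam, and 0 to 14 with 1 embryo left out, and the 0 called higher became 1 with no filter or batch 1 alone and 0 to 1 with 1 embryo left out. In the PNs without Cluster 1, the 2 list genes called lower became 8 with DESeq2, 7 with batch 1 alone, 0 with batch 2 alone or sums per dam, 1 with thinned counts, 5 with no fold limit, and 0 to 13 with 1 embryo left out, and the 0 called higher became 1 with DESeq2 or thinned counts and 0 to 2 with 1 embryo left out. The 0 of 10 genes with a called difference of effects between PNs and RGCs became 0 to 1 with 1 embryo left out. Of the 30 genes most alike in pattern, 7 were again among the nearest 3 with Spearman and 14 with all 11 embryos. Trps1 in the PNs without Cluster 1 turned from -0.064 to 0.039 on the log2 scale with batch 2 alone. For most of these settings the share of all genes called is not given here, so a changed count need not be particular to the genes named. The causes were not tested.

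With 2 dams a group, dam and treatment rest on few litters, and sums per dam leave 2 against 2. EtOH libraries were shallower in Cluster 1, where Ect2, Megf10, Plce1 and Tanc1 had few UMIs, so their levels are the least precise. Intervals and SDs cover the embryos measured.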
